A study of Mus musculus with 12 samples.

Results

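The 9 genes described here encode sensors of RNA and DNA and the proteins that sit directly beneath them: the endosomal toll-like receptors Tlr3, Tlr7, Tlr8 and Tlr9, the RIG-I-like receptors Ddx58, Ifih1 and Dhx58, the adaptor Mavs and the kinase Eif2ak2. They were chosen by name, as a check of responses to transfected siRNA, and every probe set that carries one of their symbols was used. Each gene had 1 probe set, so the 9 genes are 9 of 35512 probe sets and 9 of the 19938 genes measured.

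The arrays came from NIH3T3, an immortalised mouse fibroblast line, transfected with the lipid reagent Dharmafect 2 and taken for total RNA 48 hours later. Mock cells received the reagent with no siRNA, sirEGFP cells received 40 nM of a control siRNA against the jellyfish protein EGFP, and sirUBF oligo #1 and sirUBF oligo #2 cells received 40 nM of one of 2 separate siRNAs against UBF, the RNA polymerase I factor encoded by Ubtf. Each of the 4 groups held 3 biological replicates, 12 arrays in all, and all 4 groups therefore shared the cell line, the reagent and the time. The sequences of the siRNAs were not used here.

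Cells read foreign RNA through a small set of receptors. In endosomes TLR3 binds double-stranded RNA, TLR7 and TLR8 bind single-stranded RNA and TLR9 binds unmethylated CpG DNA, and all but TLR3, which uses TRIF, signal through MYD88. In the cytosol RIG-I (Ddx58) binds short RNA with an uncapped phosphorylated end and MDA5 (Ifih1) binds long double-stranded RNA, and both pass the signal to MAVS on mitochondria. LGP2 (Dhx58) lacks the signalling domains and tunes the other receptors, while PKR (Eif2ak2) dimerises on double-stranded RNA and phosphorylates the initiation factor eIF2alpha. Many of these genes are themselves interferon-stimulated, and transfected siRNA is a known ligand for several of their products.

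Across the 12 arrays, values are log2 signals. Array medians ran from 5.38 to 5.54. Arrays of 1 group correlated at 0.980 to 0.994, and arrays of different groups at 0.975 to 0.994. Ubtf was lower on each of the 6 sirUBF arrays (7.49 at the least) than on any of the 6 controls, which ran from 8.04 to 8.68. The margin was small, with oligo 1 array 1 at 7.998 and sirEGFP array 3 at 8.039. The share of all genes with such a separation downward was not counted, so it is only described. The fall of Ubtf against Mock was called with oligo 1 (log2 change -0.74, limma adjusted p = 0.0252) and with oligo 2 (-0.79, adjusted p = 0.0146). Against sirEGFP the fall did not pass the threshold (-0.55, adjusted p = 0.107, and -0.61, adjusted p = 0.0771). With the replicate number as a block the fall with oligo 2 against sirEGFP passed (adjusted p = 0.0115). The fibroblast markers averaged 8.98 to 9.62 over the arrays and the 10 measured immune cell markers averaged 4.56 to 4.89, with Ptprc, the pan-leukocyte marker, at 3.78 to 4.18 on all arrays. RNA came from whole cultures, in which fewer cells of a type and less RNA per cell cannot be told apart.

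The control siRNA gave no called change in any of the 9 sensors. In sirEGFP against Mock the changes ran from -0.24 for Dhx58 to 0.24 for Tlr8 on the log2 scale, and 0 of 9 passed limma's test at an adjusted p under 0.05 or an unadjusted p under 0.05. Over all genes 0% were called in this comparison, while 6.25% had an unadjusted p under 0.05. The median change of the 9 sensors was 0.043, beside 0.018 over all genes. The 95% intervals set how large a change in array signal could have been missed. That of Ddx58 ran from -0.30 to 0.22, that of Tlr7 from -0.27 to 0.35 and that of Eif2ak2 from -0.13 to 0.46. The interval was wider for Mavs, from -0.80 to 0.44. For Tlr3 it ran from -0.21 to 0.50, for Tlr9 from -0.24 to 0.57 and for Tlr8 from -0.031 to 0.51. That of Ifih1 ran from -0.29 to 0.37 and that of Dhx58 from -0.65 to 0.17.

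**Figure D1:**
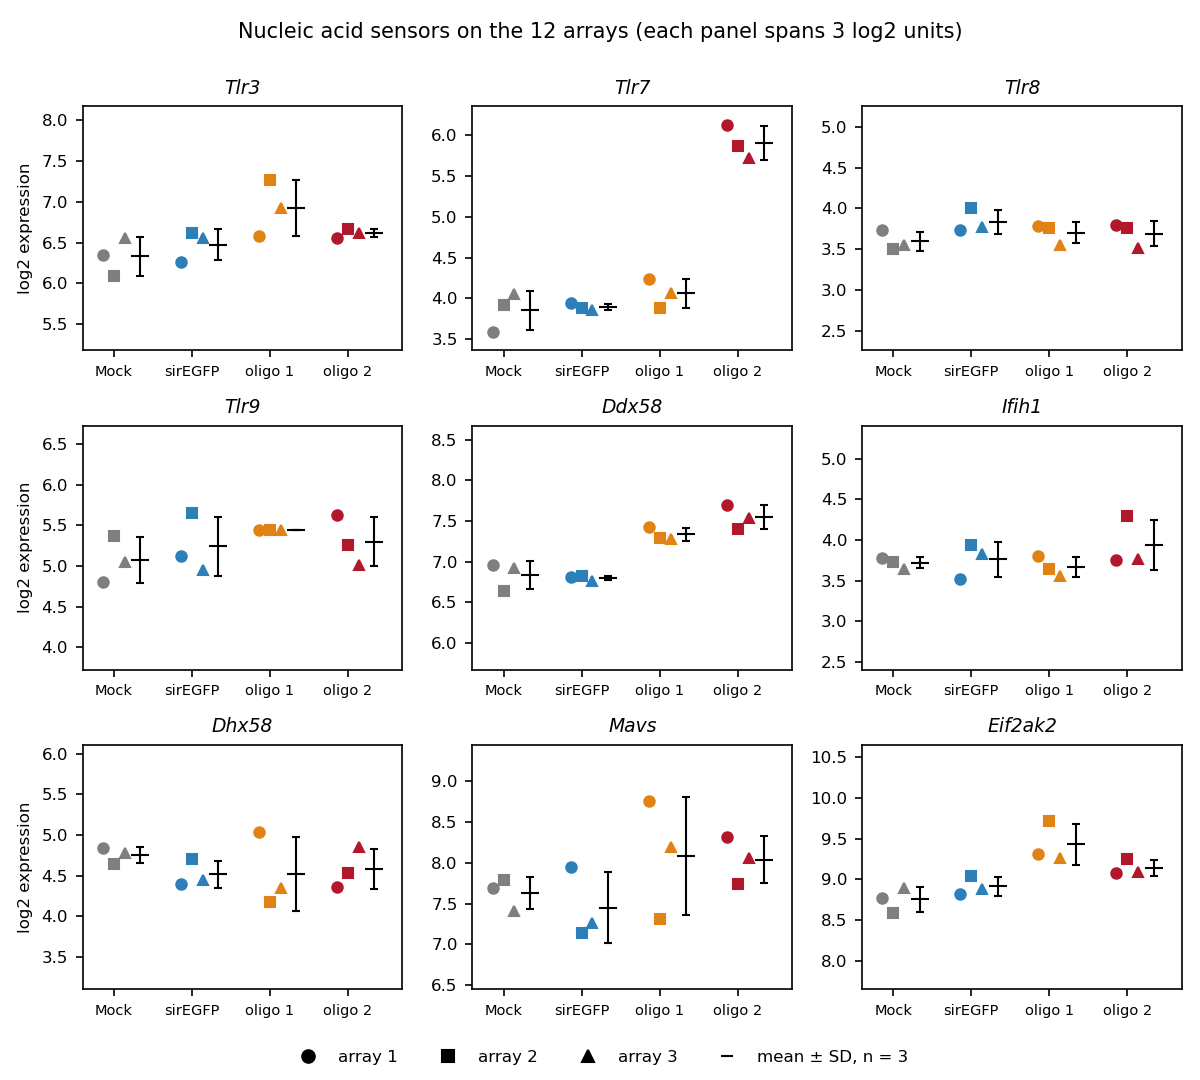
Log2 signal of the 9 sensors (one panel each, y axis) on each array of the 4 groups (x axis); circles, squares and triangles are replicates 1, 2 and 3, and the bar with whiskers is the mean and SD. Tlr7 on the oligo 2 arrays lies at 5.72 to 6.13 and below 4.25 elsewhere, and Ddx58 is higher on all 6 sirUBF arrays than on all 6 control arrays.

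The sirUBF arrays differed from the controls in 3 of the 9 sensors: Tlr7, Ddx58 and Eif2ak2. When the mean of the 2 sirUBF groups was set against the mean of Mock and sirEGFP, all 3 rose, and none of the 9 fell. In that comparison 4.93% of all genes were called, and 3.05% of all genes were called higher. The median change of the 9 was 0.36, beside 0.016 over all genes. Ddx58 and Eif2ak2 were the sensors whose 6 sirUBF arrays all lay above all 6 control arrays, a separation that 1.43% of all genes showed in this direction. Tlr7 differed from both in that its mean over the 2 oligos came from oligo 2 alone, as its values below show. The comparisons with Mock and with sirEGFP share the sirUBF arrays, and the comparisons of the 2 oligos share their controls, so they are not separate tests.

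**Figure D2:**
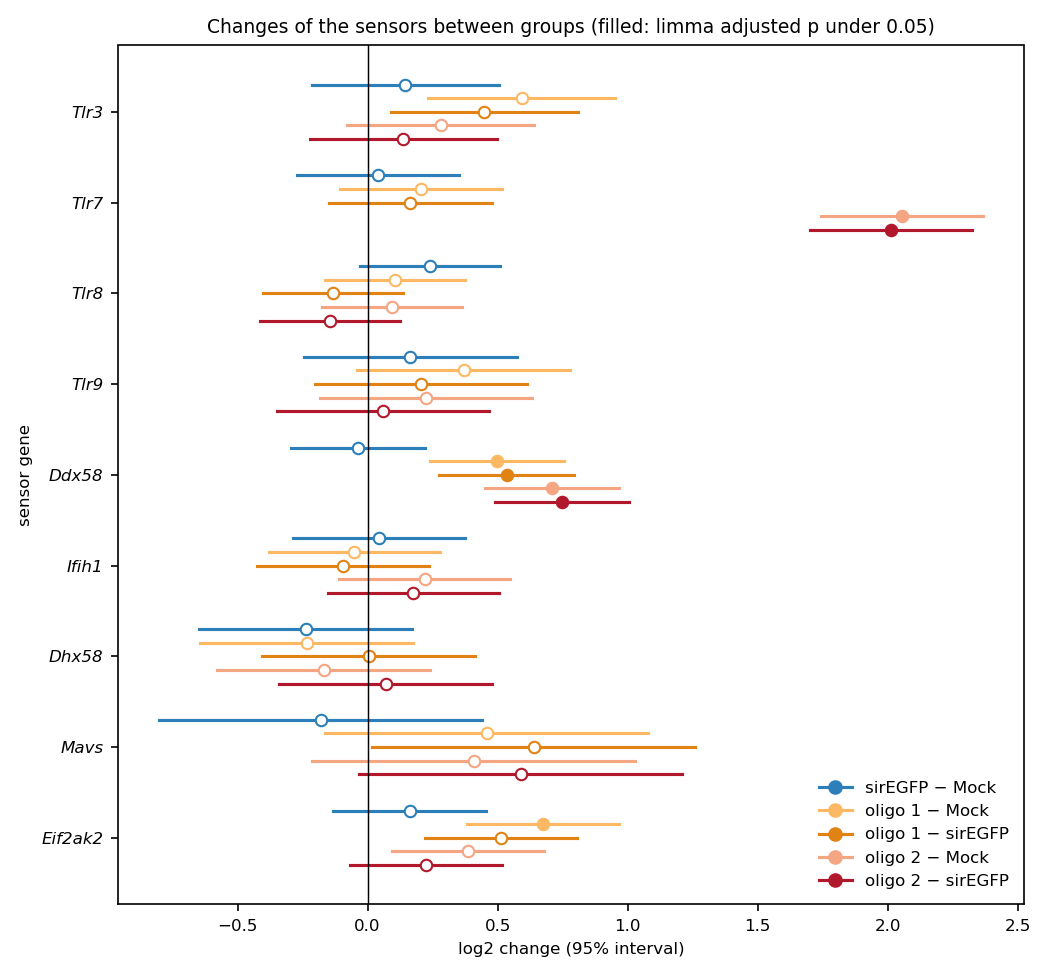
Log2 change (x axis) of each sensor (y axis) with its 95% interval in 5 comparisons (colours); filled points passed limma's adjusted p of 0.05. In sirEGFP minus Mock none of the 9 points is filled, and the Tlr7 point stands at 2.05 in oligo 2 minus Mock and 2.01 in oligo 2 minus sirEGFP.

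Among the toll-like receptors, Tlr7, the endosomal receptor for single-stranded RNA, was higher with oligo 2 and not called with oligo 1. Its log2 signal was 3.59, 3.92 and 4.05 in Mock, 3.94, 3.89 and 3.86 in sirEGFP cells, and 4.24, 3.88 and 4.06 under oligo 1. On the oligo 2 arrays it was 6.13, 5.87 and 5.72. The 3 oligo 2 arrays stood above the other 9 with no overlap, while the other groups overlapped one another; 3.32% of all genes showed such a separation of oligo 2 upward. Against Mock, where 4.25% of all genes were called and 2.93% were called higher, Tlr7 rose 4.15-fold with oligo 2 (log2 change 2.05 ± 0.15 SE, limma adjusted p = 5.1e-06). Against sirEGFP, where 2.26% were called and 1.52% higher, it rose 4.04-fold (2.01 ± 0.15, adjusted p = 6.57e-06). With the replicate number as a block, 773 rather than 451 genes were called in the latter comparison and the calls of the 9 sensors were the same. Replicates 1 and 2 of these 2 groups bear that block out better than replicate 3. These folds compare array signals, and Tlr7, Tlr8 and Ifih1 belong to the 25% of genes with the lowest mean signal. The values carry no detection call, so whether the Tlr7 signal outside the oligo 2 arrays is above background was not tested.

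With oligo 1 the change of Tlr7 was 0.21 against Mock (adjusted p = 0.648) and 0.16 against sirEGFP (adjusted p = 0.738), with an interval of -0.15 to 0.48 in the latter. The difference between the oligos was itself tested: Tlr7 was 3.60-fold higher with oligo 2 than with oligo 1 (1.85 ± 0.15, adjusted p = 1.88e-05), in a comparison where 3.67% of all genes were called and 2.3% were called higher. It was the 1 sensor of 9 called there. The mean of the 3 siRNA groups against Mock also gave a call for Tlr7 (0.77 ± 0.12, adjusted p = 0.0104), where 0.998% of genes were called. That mean came mostly from oligo 2, with a change of 2.05 against Mock, beside 0.21 with oligo 1 and 0.041 with sirEGFP. The call was lost without Mock array 1 (0.64, adjusted p = 0.105) or Mock array 2 (0.80, adjusted p = 0.0561).

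Some markers of cell type also differed between groups. Of 9 fibroblast markers, 2 rose and 0 fell with oligo 2 against sirEGFP, the receptor genes Pdgfrb (1.75, adjusted p = 0.0126) and Pdgfra (0.91, adjusted p = 0.0119). None was called with oligo 1 against sirEGFP, where 3 had an unadjusted p under 0.05, beside 13.4% of all genes. Over all genes 1.52% were called higher with oligo 2 against sirEGFP and 1.04% with oligo 1. Both also rose with oligo 2 against oligo 1, while Thy1 fell by 0.67 (adjusted p = 0.0305). Pdgfra rose with oligo 2 against Mock as well (0.90, adjusted p = 0.00932). Pdgfrb did not pass there (0.91, adjusted p = 0.179), and its change in sirEGFP against Mock was -0.84, not called (adjusted p = 0.775). Over both oligos against both controls Pdgfra (0.50, adjusted p = 0.0290) and the fibronectin gene Fn1 (0.62, adjusted p = 0.0284) rose. For Pdgfra this mean came mostly from oligo 2, as its change with oligo 1 was 0.096 against sirEGFP and 0.089 against Mock. Of the 10 immune cell markers, Csf1r rose with oligo 1 against sirEGFP (0.83, adjusted p = 0.00874) and Mock (0.83, adjusted p = 0.00720), and over both oligos (0.43, adjusted p = 0.0285). The mean over both came mostly from oligo 1, as the Csf1r change with oligo 2 was 0.036 against sirEGFP and 0.038 against Mock. With oligo 2 against Mock 2 of the 10 fell, Lyz2 (-0.75, adjusted p = 0.0368) and Cd79a (-0.66, adjusted p = 0.0411), where 4.25% of all genes were called in either direction. Against sirEGFP none was called with oligo 2, and 4 had an unadjusted p under 0.05, beside 12.9% of all genes. These 4 went both ways. Cd68 (1.00, adjusted p = 0.0648) and Siglech (0.38, adjusted p = 0.285) were higher, and Lyz2 (-0.61, adjusted p = 0.119) and Cd79a (-0.53, adjusted p = 0.137) were lower. The part of these markers in the sensors' changes was not tested.

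Tlr3, the endosomal receptor for double-stranded RNA, had its highest mean with oligo 1 but passed the test in none of the 8 comparisons. Its signal was 6.35, 6.08 and 6.56 in Mock, 6.26, 6.61 and 6.56 in sirEGFP cells, 6.59, 7.27 and 6.92 under oligo 1, and 6.56, 6.66 and 6.62 under oligo 2. The oligo 1 arrays all lay above the Mock arrays but overlapped the sirEGFP arrays, and the oligo 2 arrays overlapped both. The share of all genes in which a pair of groups separates was not counted, so the separation from Mock is only described. The change with oligo 1 was 0.59 against Mock (adjusted p = 0.0824) and 0.45 against sirEGFP (adjusted p = 0.228), and with oligo 2 it was 0.28 against Mock (adjusted p = 0.504). Without oligo 1 array 1 the change against Mock was 0.76 and passed (adjusted p = 0.0236), and the change over both oligos against both controls, 0.36 (adjusted p = 0.104), became 0.45 and passed (adjusted p = 0.0313). That array held the lowest Tlr3 signal of its group (6.59), so leaving it out raises the change by itself, and no conclusion is drawn from these calls.

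Tlr8, which binds single-stranded RNA in endosomes, and Tlr9, the CpG DNA receptor, were called in none of the 8 comparisons. Tlr8 was 3.73, 3.51 and 3.55 in Mock, 3.73, 4.01 and 3.77 in sirEGFP cells, 3.79, 3.76 and 3.56 under oligo 1, and 3.80, 3.76 and 3.52 under oligo 2. Tlr9 was 4.81, 5.37 and 5.05 in Mock, 5.12, 5.64 and 4.95 in sirEGFP cells, 5.44, 5.44 and 5.45 under oligo 1, and 5.62, 5.26 and 5.02 under oligo 2. The groups overlapped in both genes apart from 2 pairs. As for Tlr3, the share of all genes with such a separation was not counted, so these 2 pairs are only described. Tlr8 was higher on the sirEGFP arrays than on the Mock arrays by a small margin (change 0.24, interval -0.031 to 0.51), and Tlr9 was higher on the oligo 1 arrays than on the Mock arrays (change 0.37, adjusted p = 0.456), and neither passed the test.

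Among the RIG-I-like receptors, Ddx58, which encodes RIG-I, was higher on the sirUBF arrays, and Ifih1 and Dhx58 were not called. The RefSeq promoter table (GRCm38.p6; 250 bases before to 50 after the start) holds 7 of the 9 sensors, not Tlr7 and Dhx58. These windows were searched on both strands for 2 copies of GAAA in the same direction with any 2 bases (NN) between them, the core of the interferon-stimulated response element that interferon regulatory factors bind. It occurred in 3 of the 7, Ddx58, Ifih1 and Eif2ak2, and not in the windows of Tlr3, Tlr8, Tlr9 and Mavs. Of all 32851 promoters in the table, 3.44% held it. The matches are printed because they fall in both sensors that separated the 6 sirUBF arrays from the 6 controls, and in 1 that did not. Each line gives 30 bases, 5′ to 3′ on the gene's own strand (the minus strand for all 3), with the match in capitals.
Ddx58: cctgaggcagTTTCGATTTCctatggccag
Ifih1: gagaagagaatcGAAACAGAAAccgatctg
Eif2ak2: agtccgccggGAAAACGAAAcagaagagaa
The stretch of Ddx58 lies at chr4:40239804-40239833, that of Ifih1 at chr2:62646206-62646235 and that of Eif2ak2 at chr17:78882535-78882564. The first base of the match lay 2 bases after the start in Ddx58, 32 in Ifih1 and 18 in Eif2ak2, and in Ddx58 it reads in reverse. A match is a description of these letters, and binding was not measured.

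The signal of Ddx58 was 6.96, 6.64 and 6.92 in Mock and 6.81, 6.82 and 6.77 with sirEGFP. It was 7.43, 7.30 and 7.28 under oligo 1 and 7.70, 7.40 and 7.54 under oligo 2. The lowest sirUBF array lay above the highest control array, the 2 control groups overlapped, and the 2 oligos overlapped. Over both oligos against both controls Ddx58 rose 1.54-fold (0.62 ± 0.085, limma adjusted p = 0.000842), higher on 6 of 6 sirUBF arrays, and this call held in 21 of 21 alternative settings.

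With oligo 2 the rise of Ddx58 was 1.64-fold against Mock (0.71 ± 0.12, adjusted p = 0.00421) and 1.68-fold against sirEGFP (0.75 ± 0.12, adjusted p = 0.00383), both called in all 21 alternatives. With oligo 1 it was 1.41-fold against Mock (0.50 ± 0.12, adjusted p = 0.0393; 2.75% of genes called, 1.35% higher). Against sirEGFP it was 1.45-fold with oligo 1 (0.53 ± 0.12, adjusted p = 0.0299; 2.47% called, 1.04% higher). The oligo 1 calls were less steady. That against sirEGFP was lost without sirEGFP array 1 (adjusted p = 0.0531), 2 (0.109) or 3 (0.116) or oligo 1 array 1 (0.109) or 3 (0.0827). That against Mock was lost without Mock array 1 (adjusted p = 0.0664), 2 (0.172) or 3 (0.0706), sirEGFP array 2 (0.0597) or 3 (0.0547), oligo 1 array 1 (0.117), 2 (0.0560) or 3 (0.102), or oligo 2 array 3 (0.0613). Both were also lost with each array centred on its median (adjusted p = 0.0684 against sirEGFP and 0.0928 against Mock) and with only the arrays of the 2 groups in the fit (0.0864 and 0.125), and that against Mock with an intensity trend in the variance (0.0635). The difference between the oligos did not pass (0.21, interval -0.044 to 0.47, adjusted p = 0.474).

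Ifih1, the receptor for long double-stranded RNA, was 3.78, 3.73 and 3.65 in Mock, 3.52, 3.94 and 3.82 in sirEGFP cells, 3.80, 3.64 and 3.56 under oligo 1, and 3.75, 4.29 and 3.77 under oligo 2. Dhx58, which has no signalling domain of its own, was 4.84, 4.64 and 4.78 in Mock, 4.40, 4.70 and 4.45 in sirEGFP cells, 5.04, 4.17 and 4.35 under oligo 1, and 4.37, 4.54 and 4.85 under oligo 2. The groups of both genes overlapped in every pairing. Over both oligos against both controls Ifih1 changed by 0.063 and Dhx58 by -0.083, neither called, so of the 3 RIG-I-like receptors only Ddx58 passed the test in this comparison.

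Mavs, the mitochondrial adaptor below RIG-I and MDA5, had higher means with both oligos but was called in none of the 8 comparisons. Its signal was 7.69, 7.79 and 7.41 in Mock, 7.95, 7.14 and 7.26 in sirEGFP cells, 8.75, 7.31 and 8.19 under oligo 1, and 8.31, 7.73 and 8.06 under oligo 2. Oligo 1 array 2 lay among the controls while the other 2 oligo 1 arrays lay above all of them, and oligo 2 array 2 overlapped the controls too. Against sirEGFP the change was 0.64 ± 0.29 with oligo 1 (adjusted p = 0.355) and 0.59 with oligo 2 (adjusted p = 0.426). Over both oligos against both controls it was 0.52 (adjusted p = 0.196). Without oligo 1 array 2 these became calls: 1.02 with oligo 1 against sirEGFP (adjusted p = 0.0248) and 0.72 over both oligos (adjusted p = 0.0141). That array held the lowest Mavs signal of its group (7.31), so leaving it out raises the change by itself, and no conclusion is drawn from these calls.

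That array stood at one end of the leading direction in which arrays of 1 group spread. This within-group axis, the first principal component of the genes' deviations from their group means, took 41.5% of the within-group variance, with oligo 1 array 2 at 0.20 and sirEGFP array 3 at 0.12 at one end, and oligo 1 array 1 at -0.19 and sirEGFP array 1 at -0.17 at the other. Over the 12 arrays, the deviations of Mavs followed it with r = -0.97 and those of Tlr3 with r = 0.89. For Eif2ak2 r was 0.73, for Tlr7 -0.56 and for Ddx58 -0.33. These are descriptions, since the sensors are among the genes that define the axis. A setting chosen after seeing the data left out oligo 1 arrays 1 and 2 and sirEGFP array 1. It keeps 1 oligo 1 array and assumes it varies like the other groups. There the Mavs change was 0.84 with oligo 2 against sirEGFP and 0.70 over both oligos. The array left out of sirEGFP held the highest Mavs signal of its group (7.95 against 7.14 and 7.26), while sirEGFP array 3 was kept. Leaving it out raises the change against sirEGFP by itself, so no conclusion is drawn. What the axis stands for was not tested.

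**Figure D3:**
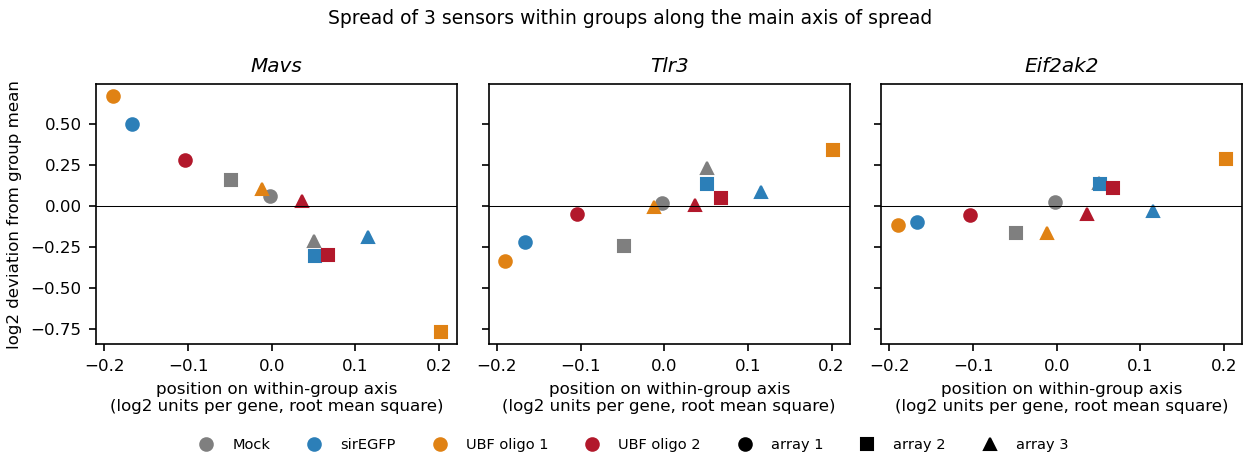
Deviation of the log2 signal from the group mean (y axis) against the position of each of the 12 arrays on the within-group axis (x axis), for Mavs, Tlr3 and Eif2ak2; colours are the 4 groups. Mavs falls along the axis (r = -0.97) while Tlr3 (r = 0.89) and Eif2ak2 (r = 0.73) climb, with oligo 1 arrays 1 and 2 at opposite ends.

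Eif2ak2, the gene of the double-stranded-RNA kinase PKR, was higher on the sirUBF arrays, and the call in a single oligo was with oligo 1. Its signal was 8.78, 8.59 and 8.89 in Mock, 8.82, 9.05 and 8.89 in sirEGFP cells, 9.31, 9.71 and 9.26 under oligo 1, and 9.08, 9.25 and 9.09 under oligo 2. All 6 sirUBF arrays lay above all 6 controls, although oligo 2 array 1 cleared sirEGFP array 2 by little. Over both oligos against both controls the rise was 1.37-fold (0.45 ± 0.097, limma adjusted p = 0.0149). Without the 3 axis-end arrays just named it was 0.34 and did not pass (adjusted p = 0.102), again with oligo 1 represented by its array 3.

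With oligo 1 against Mock, Eif2ak2 rose 1.60-fold (0.67 ± 0.14, adjusted p = 0.0144). That call was lost without Mock array 1 (adjusted p = 0.0537), without Mock array 2 (0.0779) or with only the arrays of the 2 groups in the fit (0.0676). Against sirEGFP the change with oligo 1 was 0.51 ± 0.14 and did not pass (adjusted p = 0.0678). With oligo 2 it was 0.39 against Mock (adjusted p = 0.153) and 0.22 against sirEGFP (adjusted p = 0.565). The oligos did not differ past the threshold (-0.29 for oligo 2 minus oligo 1, interval -0.58 to 0.0047, adjusted p = 0.356).

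The other genes of these pathways were read from 7 lists. Of 11 measured adaptors and trafficking factors of the toll-like receptors, 2 rose with oligo 2 against Mock, where 2.93% of all genes were called higher, and 0 against sirEGFP, where 1.52% were and 3 of the 11 had an unadjusted p under 0.05. They were Tab2 (0.54, adjusted p = 0.0161) and Map3k7 (0.49, adjusted p = 0.0312), which encode the TAB2 and TAK1 subunits of the kinase complex below TRAF6. Of 14 cofactors of the RIG-I-like receptors and the MAVS branch, none was called in any of the 8 limma comparisons, and 0 to 4 had an unadjusted p under 0.05, beside 6.25% to 16.4% of all genes. The smallest p belonged to Trim25, the ubiquitin ligase of RIG-I (0.33 over both oligos against both controls, adjusted p = 0.0542).

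Of 12 interferon regulatory factors, interferon receptor chains and JAK-STAT genes, 3 rose with oligo 2 against Mock and 0 with oligo 1, beside 2.93% and 1.35% of all genes. With oligo 1 against Mock 3 had an unadjusted p under 0.05. Irf2, a regulator that binds the response element above, rose with oligo 2 against sirEGFP (0.89, adjusted p = 0.00594). The interferon receptor chains rose with oligo 2 against Mock, Ifnar1 by 0.48 (adjusted p = 0.0174) and Ifnar2 by 0.64 (adjusted p = 0.0129). Against sirEGFP neither was called with oligo 2, Ifnar1 at 0.35 (adjusted p = 0.111) and Ifnar2 at 0.42 (adjusted p = 0.125). Ifnb1, which encodes interferon beta, lay between 2.88 and 3.29 on the 12 arrays.

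Of 15 other nucleic acid sensors and RNA effectors, 1 rose and 0 fell with oligo 2 against sirEGFP, and 0 rose and 1 fell with oligo 1, beside 2.26% and 2.47% of all genes called in either direction. Ifi203, of the family of interferon-inducible DNA-binding proteins, rose with oligo 2 (1.06, adjusted p = 0.0132). Cgas, the cytosolic DNA sensor, fell by 0.59 with oligo 1 against sirEGFP (adjusted p = 0.0131) and changed by -0.015 with oligo 2 (adjusted p = 0.977). Against Mock the Cgas change with oligo 1 was -0.29 and not called (adjusted p = 0.258), and that of sirEGFP was 0.30 (adjusted p = 0.759). Sting1, the adaptor below cGAS, rose with oligo 2 against Mock (1.39, adjusted p = 0.0115) but did not pass against sirEGFP (1.09, adjusted p = 0.0551). Of 8 PKR regulators and other eIF2alpha kinases, none was called in any of the 8 limma comparisons, and 0 to 2 had an unadjusted p under 0.05, beside the same 6.25% to 16.4% of all genes. Prkra, the protein activator of PKR, came nearest with oligo 2 against sirEGFP (0.50, adjusted p = 0.0940).

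Of 25 interferon-stimulated effectors, 3 rose with oligo 2 against sirEGFP and 1 with oligo 1, and none fell in either, beside 1.52% and 1.04% of all genes called higher. Ifitm3, a membrane protein that blocks virus entry, rose with oligo 1 (0.54, adjusted p = 0.0290) and oligo 2 (0.77, adjusted p = 0.00343). Tap1, a peptide transporter of antigen presentation, rose with oligo 2 (0.96, adjusted p = 0.00314), as did the chemokine Cxcl10 (0.97, adjusted p = 0.00868). The RNA exonuclease gene Isg20 fell by 0.76 with oligo 2 against Mock (adjusted p = 0.00978) and by 0.59 over the mean of the 3 siRNA groups against Mock (adjusted p = 0.0358). The median of the 25 was 0.028 with oligo 1 and 0.038 with oligo 2 against sirEGFP, beside 0.022 and -0.0077 over all genes.

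Of 12 genes of the RNA interference machinery, 0 rose and 1 fell with oligo 1 against sirEGFP, where 2.47% of all genes were called. None was called with oligo 2, where 3 of the 12 and 12.9% of all genes had an unadjusted p under 0.05. Dgcr8, the RNA-binding partner of Drosha, fell by 0.83 with oligo 1 (adjusted p = 0.00657). Dicer1, which cuts double-stranded RNA into siRNA, rose over the mean of the 3 siRNA groups against Mock (0.49, adjusted p = 0.0319) and with oligo 2 against Mock (0.59, adjusted p = 0.0121). The Dicer1 change was also 0.54 in sirEGFP against Mock, not called (adjusted p = 0.521), and 0.052 with oligo 2 against sirEGFP (adjusted p = 0.924).

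**Figure D4:**
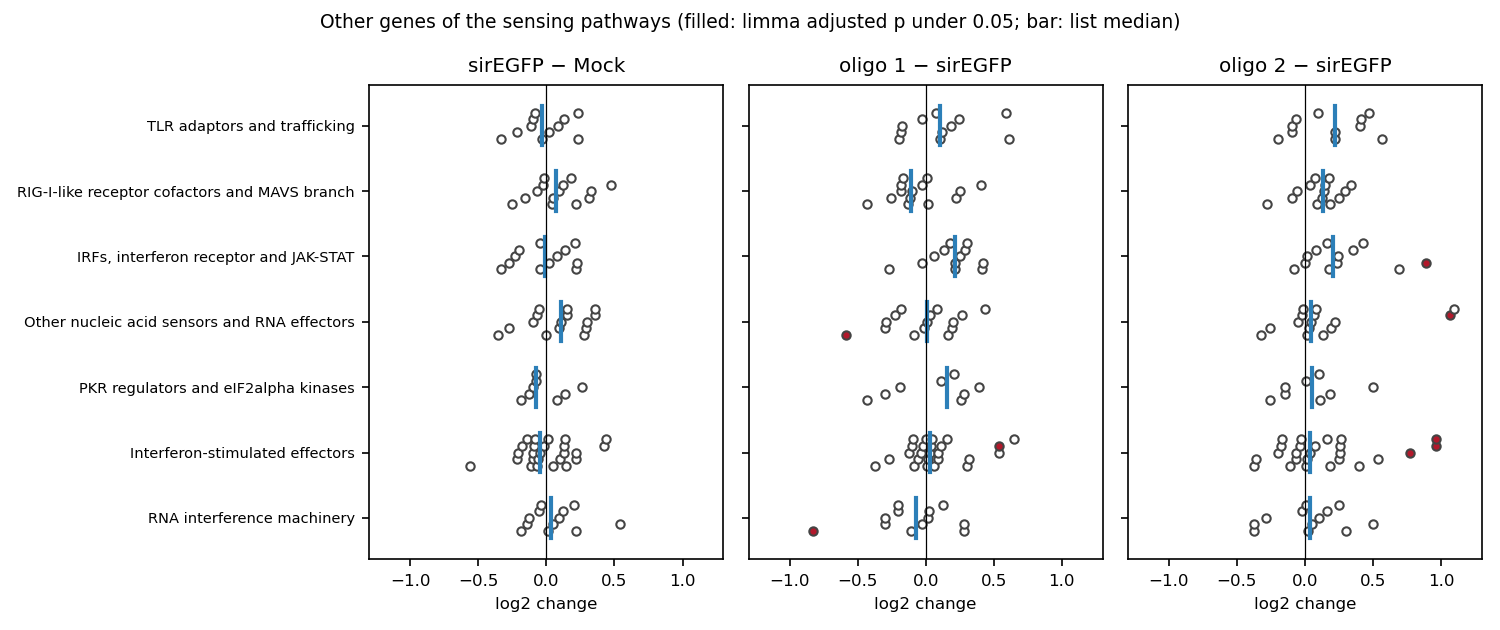
Log2 change (x axis) of every measured gene in the 7 pathway lists (y axis) in sirEGFP minus Mock and in each oligo minus sirEGFP (panels); filled points passed limma's adjusted p of 0.05 and bars are list medians. Most points lie near 0, and in oligo 2 minus sirEGFP the filled points include Irf2 at 0.89, Ifi203 at 1.06 and Cxcl10 at 0.97.

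The genes whose pattern over the 12 arrays was most like that of each called sensor differed between sensors. For Ddx58 the 5 highest Pearson correlations of log2 signal were Igfbp7 (0.954), Plcb4 (0.953), Pld1 (0.952), Nfe2l2 (0.944) and Mbnl2 (0.943). For Eif2ak2 they were Ang2 (0.944), Xpc (0.931), Efemp1 (0.931), Mcur1 (0.927) and Tmf1 (0.924). For Tlr7 they were Htatsf1 (0.971), Sumo3 (0.967), Bbx (0.966), Vcam1 (0.963) and Ppm1l (0.963). These correlations run over arrays of 4 groups, so they mostly restate the differences between groups, and they are given as a description.

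Tlr7 lies on the X chromosome, and the order of genes in RefSeq (GRCm38.p6) places Tlr8 and Tmsb4x on one side of it and Prps2 and Frmpd4 on the other among the genes measured here. These neighbours were looked at after the values of Tlr7 were seen. Prps2, a phosphoribosyl pyrophosphate synthetase that feeds nucleotide synthesis, was 9.67, 9.68 and 9.92 in Mock, 9.96, 10.10 and 9.98 in sirEGFP cells, 9.87, 9.74 and 9.85 under oligo 1, and 10.69, 10.41 and 10.58 under oligo 2. As for Tlr7, the 3 oligo 2 arrays lay above the other 9. Prps2 rose with oligo 2 against Mock (0.80, limma adjusted p = 0.00177), against sirEGFP (0.55, adjusted p = 0.0244) and against oligo 1 (0.74, adjusted p = 0.00243). Tlr8, Tmsb4x and Frmpd4 were called in none of these 3 comparisons.

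**Figure D5:**
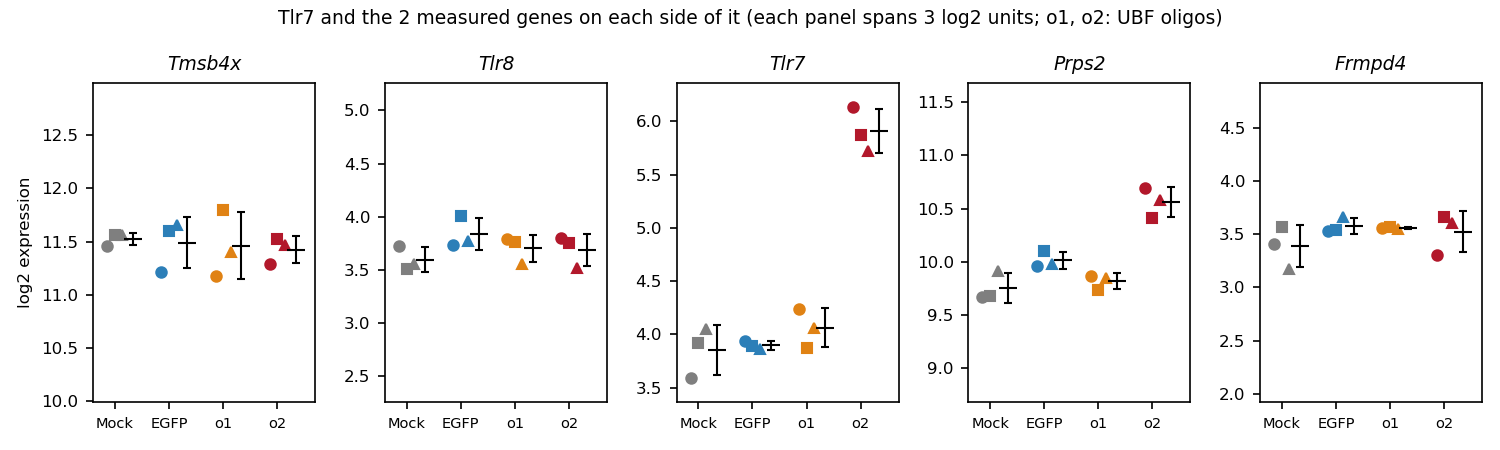
Log2 signal (y axis) of Tlr7 and the 4 nearest measured genes on the X chromosome (panels, in RefSeq order) on each array of the 4 groups (x axis), with mean and SD. The oligo 2 arrays lie above the other 9 for Tlr7 and for Prps2 (10.41 to 10.69 against 10.10 at most).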

How the data were processed

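The deposited table holds log2 signals of 35512 Affymetrix probe sets on 12 arrays. Its scale was read from the values (1.29 to 13.96). Per the labels' protocols, the authors amplified and biotin-labelled cDNA with the NuGen Applause WT-Amp ST system. The submitters' processing notes name limma. How signals were background-corrected, normalized and summarised is not given in the sources used here. Signals were used as deposited. By the platform annotation 21789 probe sets had 1 gene symbol, 1621 had several and 12102 had none, and 21698 of the first kind were matched to RefSeq (GRCm38.p6). The probe set with the highest mean stood for each of 19938 genes. limma 3.58.1 in R 4.3.3 fitted 1 coefficient per group over the 12 arrays, with eBayes, two-sided tests and Benjamini-Hochberg adjustment over all genes, called at 0.05, in 8 comparisons. 21 alternatives were run and the procedure was tested on simulated data. The number of arrays limits the precision.

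The sensors and lists were chosen with earlier results of these data known. All 9 sensors are named. From each pathway list, up to 4 genes called in any comparison are named by smallest adjusted p, or the 1 nearest to a call, and for each called sensor the 5 genes most like it, passing over predicted and clone-named genes. Cell type markers are named where called, after their values were seen, with Ptprc, Cd68 and Siglech as exceptions. The labels give replicate numbers 1 to 3 in each group. Same-numbered arrays deviated together in every pair for sirEGFP and oligo 2 (correlations of 0.18 to 0.55) and for oligo 1 and oligo 2 (0.12 to 0.39), so the numbers were taken to pair the arrays of these 2 comparisons. For replicate 3, however, the highest correlation with a different number was larger in both (0.28 beside 0.18, and 0.121 beside 0.115). Over all comparisons 13 of 18 pairs were best with their own number, so the pairing is not certain. In the other comparisons at least 1 pair was at or under 0.1.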

Additional observations from a re-analysis of the deposited data

Results flagged for a closer look

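The changes with the 2 sirUBF oligos, each against the same sirEGFP arrays, differed from each other in 6 genes among the 9 sensors and the 17 other genes named from the pathway lists and as siRNA target, by limma's test of oligo 2 minus oligo 1. Over all genes 3.67% were called in that test, 2.3% of all genes higher. The genes from the pathway lists were named by their smallest adjusted p over comparisons that included this test. They were thus partly selected on the same values, and the count of 6 cannot be set against the share of all genes. Of the 9 sensors, which were chosen by name, only Tlr7 was called. The difference was 1.85 for Tlr7 (adjusted p = 1.88e-05). It was 0.60 for Irf2 (adjusted p = 0.0443) and 0.57 for Cgas (adjusted p = 0.0111). Ifi203 differed by 1.03 (adjusted p = 0.0117), Tap1 by 0.64 (adjusted p = 0.0261) and Cxcl10 by 1.02 (adjusted p = 0.00432). All 6 were higher with oligo 2. The markers, the neighbours of Tlr7 and the genes named for likeness lie outside this count and went both ways. Called higher with oligo 2 were Prps2 (0.74, adjusted p = 0.00243), Pdgfrb (1.33, adjusted p = 0.0418), Pdgfra (0.81, adjusted p = 0.0160) and Nfe2l2 (0.45, adjusted p = 0.0326). So were Htatsf1 (0.46), Sumo3 (1.36), Bbx (0.92), Vcam1 (1.03) and Ppm1l (0.50), which were picked for their likeness to Tlr7. Called lower were Lyz2 (-1.29, adjusted p = 0.00145), Csf1r (-0.80, adjusted p = 0.00807), Ang2 (-1.14, adjusted p = 0.00310) and Thy1 (-0.67, adjusted p = 0.0305).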

How the results depend on the processing

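No value changed direction among those called. Over the 9 sensors, 8 comparisons and 21 alternatives (20 for the 3 dim sensors, which a filter on the lowest 25% of genes removes), 28 of 1488 values lost a call and 22 gained one. Of the 2856 values of the 17 other named genes, 132 lost a call and 72 gained one. Only values called in the main fit could lose a call, so in both sets the share of calls lost was larger than these totals give. Counts of genes over the whole array moved more, and the cause was not tested except where fewer arrays entered. With array weights, which gave oligo 1 array 3 a weight of 8.92, the counts were 2 for sirEGFP minus Mock (0 without weights), 2695 and 1610 for oligo 1 and oligo 2 minus Mock (549 and 848), 3814 and 1180 minus sirEGFP (493 and 451), 3164 for oligo 2 minus oligo 1 (732), 884 for the siRNA mean minus Mock (199) and 2778 for both oligos minus both controls (982). With the replicate block they were 3, 838, 1290, 878, 773, 1094, 438 and 1530 in the same order. The block ended no call of a sensor, and it added calls in oligo 1 minus Mock for Tlr3 (adjusted p = 0.0467), in oligo 1 minus sirEGFP for Eif2ak2 (0.0433), in the siRNA mean for Ddx58 (0.0395) and over both oligos for Mavs (0.0477). Array weights added calls in oligo 1 minus sirEGFP for Tlr3 (0.0233), Tlr8 (0.0351, lower), Mavs (0.00236) and Eif2ak2 (0.0325), and over both oligos for Tlr3 (0.0182) and Mavs (0.00465). With only the arrays of the groups compared, oligo 1 minus Mock gave 276, oligo 1 minus sirEGFP 101 and oligo 2 minus oligo 1 380. Without the 3 axis-end arrays, a setting added after seeing the data that leaves oligo 1 with 1 array, assumed to vary like the other groups, the counts were 145 and 1314 minus Mock, 255 and 1049 minus sirEGFP, and 211 for oligo 2 minus oligo 1. Leaving out each array in turn gave 0 to 1 for sirEGFP minus Mock, 244 to 674 and 307 to 1044 for the oligos minus Mock, 155 to 863 and 198 to 627 minus sirEGFP, 328 to 833 between oligos, 22 to 264 for the siRNA mean and 591 to 1399 for both oligos.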
